A study of Mus musculus with 2 samples.

Results

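The 8 genes described here carry sodium, chloride and water across the lung epithelium and its neighbouring layers, and they are 8 of 29004 features of a single-cell RNA sequencing series on neonatal mouse lung. They were chosen by name, with earlier results of these data known. They are the channel subunits Scnn1a, Scnn1b and Scnn1g, the ubiquitin ligase Nedd4l and the sodium pump subunit Atp1b1. The others are the chloride channel Cftr, the chloride loader Slc12a2 and the water channel Aqp1. UMIs (unique molecular identifiers, each counting 1 captured transcript) were summed per library and per cluster of the authors, of which there are 23. The 5E1 library came from pups of genotype Gli1CreERT2/+, R26RtdT/+ that received the Hedgehog-blocking antibody 5E1 at postnatal day 3. The IgG library came from pups of the same genotype that received control IgG on that day. Pups of both conditions had tamoxifen at day 1 and lungs taken at day 6. In this genotype, shared by both conditions, Gli1 regulatory sequence drives a tamoxifen-inducible Cre, and Gli1 is itself a Hedgehog target. Each condition is 1 library made from the minced lungs of 3 pups digested together, so no difference below has a replicate check.

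The epithelial sodium channel is built of alpha, beta and gamma subunits, encoded by Scnn1a, Scnn1b and Scnn1g. Sodium enters the apical side of epithelial cells through it and is pumped out on the other side by the Na,K-ATPase, and water follows. This flow empties the lung of liquid at birth and keeps the alveolar lining thin afterwards, and mice that lack Scnn1a die soon after birth with liquid in their lungs. Cftr and Slc12a2 serve the opposite flow, in which chloride moves into the lumen and draws water with it.

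The 5E1 library held 9454 kept cells with 58890639 UMIs (median 4636 per cell), and the IgG library held 13509 kept cells with 77436890 UMIs (median 4541 per cell). Levels are UMIs per 1000000 UMIs of the same cluster and library (CPM). All intervals are exact 95% intervals that cover counting error only, and all ratios are 5E1 over IgG. Of kept barcodes, 184 occurred in both libraries, which is 1.95% of the 5E1 cells and 1.36% of the IgG cells. The libraries differed in sex: 32.7% of 5E1 cells and 0.0296% of IgG cells had a UMI of a Y-linked gene. Sex and antibody therefore cannot be told apart in ratios over all cells, and ratios from the 2289 female-like 5E1 cells alone (Xist detected, Y-linked genes not) are given beside several ratios whose direction they turn. Clusters were called "like" a cell type from marker genes, and 16 of 23 received a name. The alveolar clusters held their defining markers. The AT1 (alveolar type I) list summed to 32041 CPM in 5E1 and 31439 CPM in IgG in cluster 15, and the AT2 (alveolar type II) list to 221022 CPM in 5E1 and 240976 CPM in IgG in cluster 9. Cluster 10 was led by 6 secretory and 2 ciliated markers, so it mixed airway cells.

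In GRCm38, Scnn1a lies on chromosome 6 (125320659 to 125344943, plus strand). Scnn1g (chromosome 7, 121734479 to 121768475) and Scnn1b (chromosome 7, 121865038 to 121918514) are neighbours on the plus strand with 96562 bases between them. Scnn1b overlaps Cog7 on the opposite strand, and Atp1b1 (chromosome 1, 164437109 to 164458355, minus strand) overlaps Nme7 on the opposite strand. Cftr (chromosome 6, 18170687 to 18322768, plus strand) overlaps Gm15592 on the opposite strand and Gm15595 on the same strand. Aqp1 (chromosome 6, 55336432 to 55348555, plus strand) overlaps none. Whether the authors' counting used strand is not given in the sources used here, and sharing of reads between overlapping genes was not tested.

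The windows before the starts of Scnn1b and Scnn1g are shown because these neighbouring genes take part in 1 channel and are high in the same alveolar cluster, yet differ in the airway cluster. Each is 250 bases long, on the plus strand, from RefSeq on GRCm38.p6 (chr7:121864788-121865037 for Scnn1b, chr7:121734229-121734478 for Scnn1g). Capitals mark the Sp1 GC box GGGCGG or its reverse complement CCGCCC.
Scnn1b: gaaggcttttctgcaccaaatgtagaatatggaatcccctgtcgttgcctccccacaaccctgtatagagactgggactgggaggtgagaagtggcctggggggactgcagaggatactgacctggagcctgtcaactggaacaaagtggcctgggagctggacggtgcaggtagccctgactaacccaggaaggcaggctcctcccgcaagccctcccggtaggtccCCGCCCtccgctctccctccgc
Scnn1g: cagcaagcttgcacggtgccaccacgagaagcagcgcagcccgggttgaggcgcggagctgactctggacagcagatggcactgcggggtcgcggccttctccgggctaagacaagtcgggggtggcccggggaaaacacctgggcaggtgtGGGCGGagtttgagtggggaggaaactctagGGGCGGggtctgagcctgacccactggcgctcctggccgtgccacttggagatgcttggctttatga
The Scnn1b window holds 1 GC box, 22 bases before the start, and the Scnn1g window holds 2, at 98 and 67 bases before it. The windows have equal letters at 72 of 250 positions without gaps. A promoter was found for 5 of the 8 genes, and all 5 windows hold at least 1 GC box, as do 32.7% of 32851 mouse promoter windows of the same length. None of the 5 windows holds GACCACCCA (GLI, the transcription factors of the Hedgehog pathway; 0.225% of windows), GGAATG (TEAD; 12.6%), AGAACA (glucocorticoid receptor; 16.1%) or CACTTGA (NKX2; 2.68%) on either strand. Only the GC box matched, so no match of 1 motif overlapped another motif, and it was added to the search after the other motifs had given no match.

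Among whole clusters, all 3 channel subunits had their highest level in the AT1-like cluster 15, the thin cells that cover most of the alveolar surface. For Scnn1a, the ciliated-rich cells within cluster 10, described below, stood higher still. Scnn1a, the pore-forming alpha subunit, reached 263 CPM in 5E1 and 201 CPM in IgG there. It stood at 184 CPM in 5E1 and 164 CPM in IgG in the airway cluster 10, and at 73.9 CPM in 5E1 and 32.5 CPM in IgG in the AT2-like cluster 9. The intervals of these 3 clusters did not overlap in either library. Scnn1b, the beta subunit, followed the same order, with 250 CPM in 5E1 and 183 CPM in IgG in cluster 15, 98.6 CPM in 5E1 and 93.5 CPM in IgG in cluster 10, and 35.5 CPM in 5E1 and 13.8 CPM in IgG in cluster 9. Scnn1g, the gamma subunit, was more restricted to the AT1-like cluster, with 415 CPM in 5E1 and 331 CPM in IgG. Its next clusters changed places between the libraries: cluster 9 had 60.03 CPM in 5E1 and 22.6 CPM in IgG, and cluster 10 had 35.4 CPM in 5E1 and 31.4 CPM in IgG. Cluster 15 held 64.5% of all Scnn1g UMIs in 5E1 and 59.4% in IgG, although it made up 4.69% of 5E1 cells and 2.12% of IgG cells.

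Outside the epithelium the subunits were near the level of the B cell-like cluster, where Scnn1a stood at 2.88 CPM in 5E1 and 2.92 CPM in IgG. Such cells should lack the channel, so this level was taken as a reference. It was not adjusted for depth, and whether it came from free RNA was not tested. Scnn1b did not pass 6.78 CPM and Scnn1g did not pass 3.81 CPM in any cluster other than 9, 10 and 15 in either library. Scnn1a stood well above the B cell-like level in both libraries in 3 further clusters. It had 17.4 CPM in 5E1 and 17.0 CPM in IgG in the mesothelial-like cluster 17. In the monocyte-like cluster 6 it had 10.8 CPM in 5E1 and 12.3 CPM in IgG. The highest was cluster 1, whose leading genes Ngp, Camp, Retnlg and S100a9 are granule and neutrophil genes and which stayed unnamed.

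**Figure D1:**
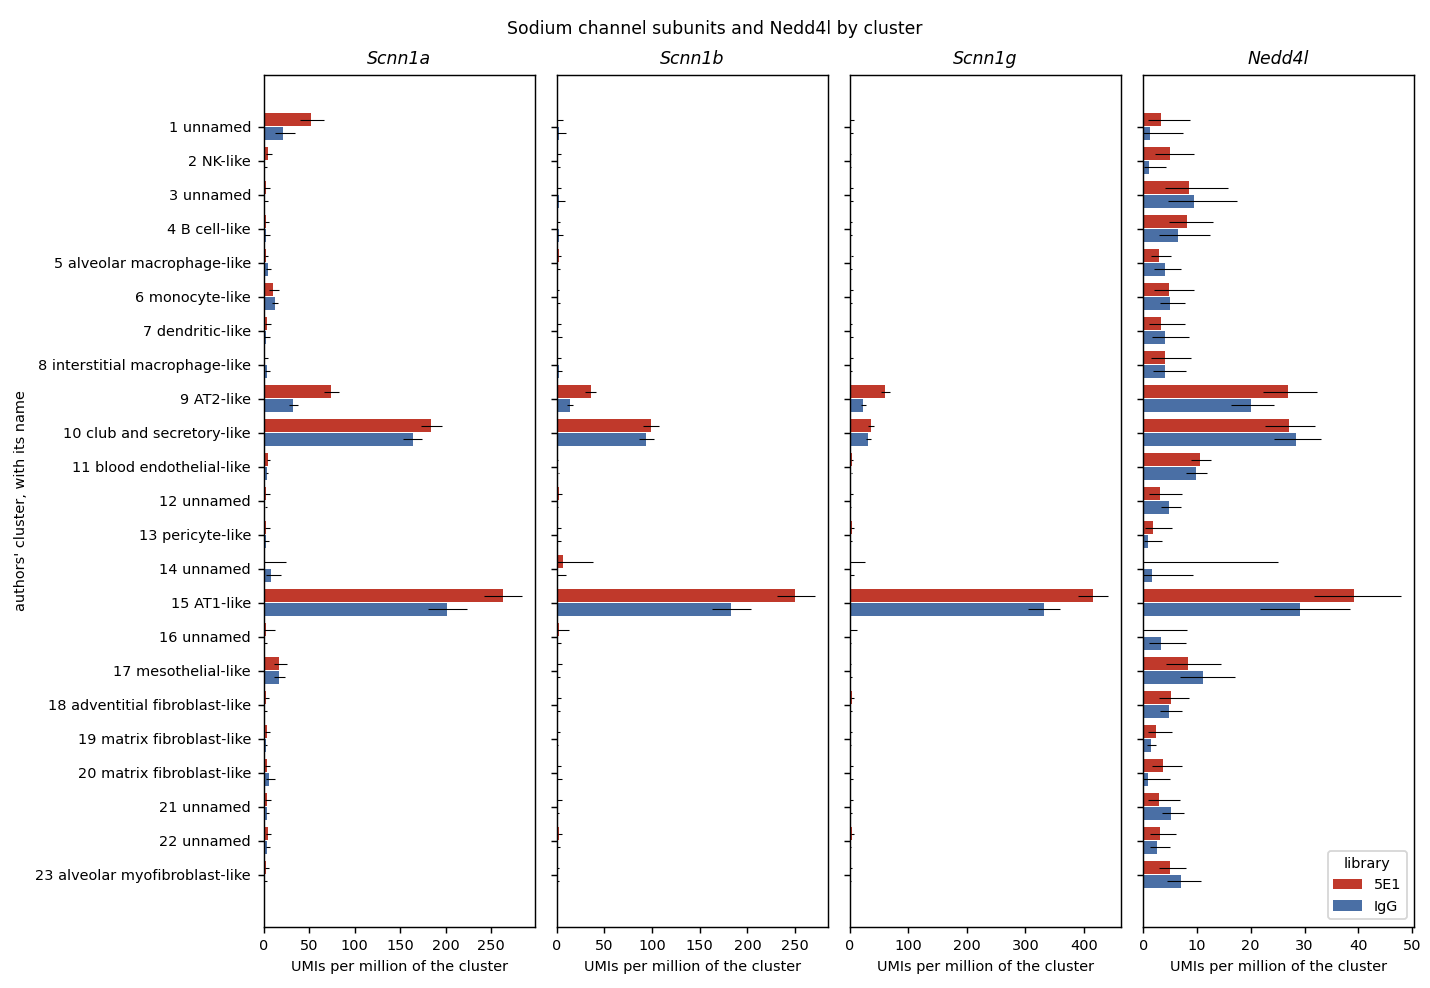
Levels of Scnn1a, Scnn1b, Scnn1g and Nedd4l in CPM (horizontal axes, a different range for each gene) in the 23 authors' clusters, with 5E1 bars above IgG bars and 95% Poisson intervals as lines. Clusters 9, 10 and 15 carry the subunits, cluster 15 is highest for each gene, and Scnn1a also shows in cluster 1.

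The mix of subunits differed between epithelial clusters. A quotient of UMIs of 2 genes is not a stoichiometry, since transcripts differ in capture, but the same quotient can be set side by side across clusters. Scnn1g per Scnn1a was 1.58 in 5E1 (1.43 to 1.75) and 1.65 in IgG (1.44 to 1.89) in the AT1-like cluster. It was 0.812 in 5E1 (0.686 to 0.960) and 0.693 in IgG (0.540 to 0.887) in the AT2-like cluster, and 0.192 in both libraries in cluster 10. Scnn1b per Scnn1a was 0.952 in 5E1 and 0.907 in IgG in cluster 15, 0.480 in 5E1 and 0.423 in IgG in cluster 9, and 0.535 in 5E1 and 0.571 in IgG in cluster 10. The 2 libraries gave overlapping intervals for each quotient in each of these clusters. Of AT1-like cells, 34.8% in 5E1 (154 of 443) and 29.97% in IgG (86 of 287) had UMIs of all 3 subunits, and 11.5% in 5E1 and 10.5% in IgG had none. Of AT2-like cells, 8.48% in 5E1 and 2.44% in IgG had all 3, and 65.5% in 5E1 and 81.8% in IgG had none. Shares of this kind follow depth, and the AT2-like cells had medians of 6998 UMIs in 5E1 and 6086 UMIs in IgG.

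Within cluster 10 the mix of subunits differed between kinds of cells. Cells with at least 20 UMIs of the ciliated list and under 500 of the secretory list, 76 in 5E1 and 88 in IgG, had Scnn1a at 335 CPM in 5E1 and 295 CPM in IgG. Both levels were above those of the whole AT1-like cluster in the same library. These ciliated-rich cells held 2 Scnn1b UMIs in 5E1 and 4 in IgG, and 2 Scnn1g UMIs in each library, against 141 Scnn1a UMIs in 5E1 and 126 in IgG. Cells with at least 2000 secretory and under 20 ciliated UMIs, 73 in 5E1 and 98 in IgG, had Scnn1a at 80.4 CPM in 5E1 and 81.2 CPM in IgG. In these secretory-rich cells Scnn1b stood at 114 CPM in 5E1 and 117 CPM in IgG, and Scnn1g at 38.4 CPM in 5E1 and 43.3 CPM in IgG. Scnn1g per Scnn1a was 0.0142 in 5E1 and 0.0159 in IgG in the ciliated-rich cells, and 0.477 in 5E1 (0.348 to 0.649) and 0.534 in IgG (0.401 to 0.706) in the secretory-rich cells. Another 75 cells in 5E1 and 119 in IgG were rich in both lists, with medians of 38443 UMIs in 5E1 and 28666 UMIs in IgG, far above the rest of the cluster; whether they were doublets was not tested. They held most of the Scnn1a UMIs of the cluster, 66.6% in 5E1 and 68.2% in IgG, against 15.1% in 5E1 and 12.8% in IgG in the ciliated-rich cells. Their Scnn1g per Scnn1a was between those of the other 2 kinds, 0.179 in 5E1 (0.145 to 0.219) and 0.151 in IgG (0.121 to 0.186), and their Scnn1b per Scnn1a was 0.486 in 5E1 and 0.499 in IgG. The limits on both lists were set after the data had been seen, and 40 cells in 5E1 and 55 in IgG had between 10 and 30 ciliated UMIs.

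In AT1-like cells all 3 subunits were moderately higher in 5E1. The ratio was 1.31 for Scnn1a (1.14 to 1.49), 1.37 for Scnn1b (1.19 to 1.58) and 1.25 for Scnn1g (1.13 to 1.39). None reached 1.5-fold, the size used throughout to call a value past the fold. Of the 8 genes, 7 had at least 50 UMIs in cluster 15, and of these 1, Slc12a2, was at least 1.5-fold higher and 0 were at least 1.5-fold lower. Over all 7146 genes with as many UMIs in this cluster, 3.33% were at least 1.5-fold higher and 3.72% at least 1.5-fold lower. AT1-like cells without any UMI of the blood endothelial list gave ratios of 1.503 for Scnn1a, 1.37 for Scnn1b and 1.30 for Scnn1g, and those with such UMIs gave 1.13 for Scnn1a (0.933 to 1.36), 1.36 for Scnn1b and 1.19 for Scnn1g. The erythroid list, mostly haemoglobin, summed to 210 CPM in 5E1 and 2059 CPM in IgG in cluster 15. AT1-like cells with under 3 UMIs of that list gave 1.43 for Scnn1a, 1.51 for Scnn1b and 1.28 for Scnn1g. Those with 3 or more, which held 18.3% of the Scnn1a UMIs of the cluster in 5E1 and 37.7% in IgG, gave 1.02 for Scnn1a (0.787 to 1.32), 1.09 for Scnn1b (0.834 to 1.42) and 1.15 for Scnn1g (0.934 to 1.41). Both splits use UMI counts, so they also follow depth. Median UMIs were 6538.5 in 5E1 and 7729.5 in IgG with 3 or more erythroid UMIs, and 3729 in 5E1 and 4396 in IgG with fewer. With endothelial UMIs they were 6045 in 5E1 and 6232 in IgG, and without them 3291 in 5E1 and 4174.5 in IgG.

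The AT2-like cluster, the surfactant-making cells that also renew AT1 cells, showed the larger ratios. Scnn1a had 319 UMIs in 5E1 and 163 in IgG, a ratio of 2.27 (1.88 to 2.76). Scnn1b had 153 UMIs in 5E1 and 69 in IgG, a ratio of 2.57 (1.93 to 3.47). Scnn1g had 259 UMIs in 5E1 and 113 in IgG, a ratio of 2.66 (2.12 to 3.35). All 8 genes had at least 50 UMIs in cluster 9, and these 3 were the only ones at least 1.5-fold higher, with 0 at least 1.5-fold lower. The background over 9227 genes of the cluster was 4.30% higher and 5.70% lower. The median log2 ratio was 0.45 over the 8 genes and -0.0007 over all genes tested.

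The AT2-like cells differed between the libraries in how many were rich in AT1 transcripts, and most UMIs of the subunits lay in these AT1-rich cells. Cells with at least 50 AT1-list UMIs per 10000 made up 17.9% of cluster 9 in 5E1 (91 of 507) and 10.2% in IgG (71 of 696). They held 75.5% of the Scnn1a UMIs of the cluster in 5E1 and 66.9% in IgG, and 92.7% of its Scnn1g UMIs in 5E1 and 85.8% in IgG. Their median UMI counts were 13132 in 5E1 and 11132 in IgG, against 6585.5 in 5E1 and 5920 in IgG in the remaining AT2-like cells, and 29 cells in 5E1 and 27 in IgG lay within 40 to 60 AT1-list UMIs per 10000. Doublets of AT1-like and AT2-like cells would look alike, and their part in the result was not tested. Within these AT1-rich cells the ratios were 1.48 for Scnn1a (1.18 to 1.88), 1.60 for Scnn1b (1.16 to 2.24) and 1.66 for Scnn1g (1.31 to 2.12). In cells under the limit Scnn1a stood at 25.8 CPM in 5E1 and 13.04 CPM in IgG, a ratio of 1.98 (1.38 to 2.86). Scnn1b in the same cells stood at 7.95 CPM in 5E1 and 3.62 CPM in IgG, and Scnn1g at 6.29 CPM in 5E1 and 3.86 CPM in IgG with an interval of the ratio from 0.79 to 3.39. With the 5E1 cells weighted over 4 bins of AT1 content as in the IgG library, the ratios of the whole cluster became 1.59 for Scnn1a, 1.64 for Scnn1b and 1.62 for Scnn1g.

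**Figure D2:**
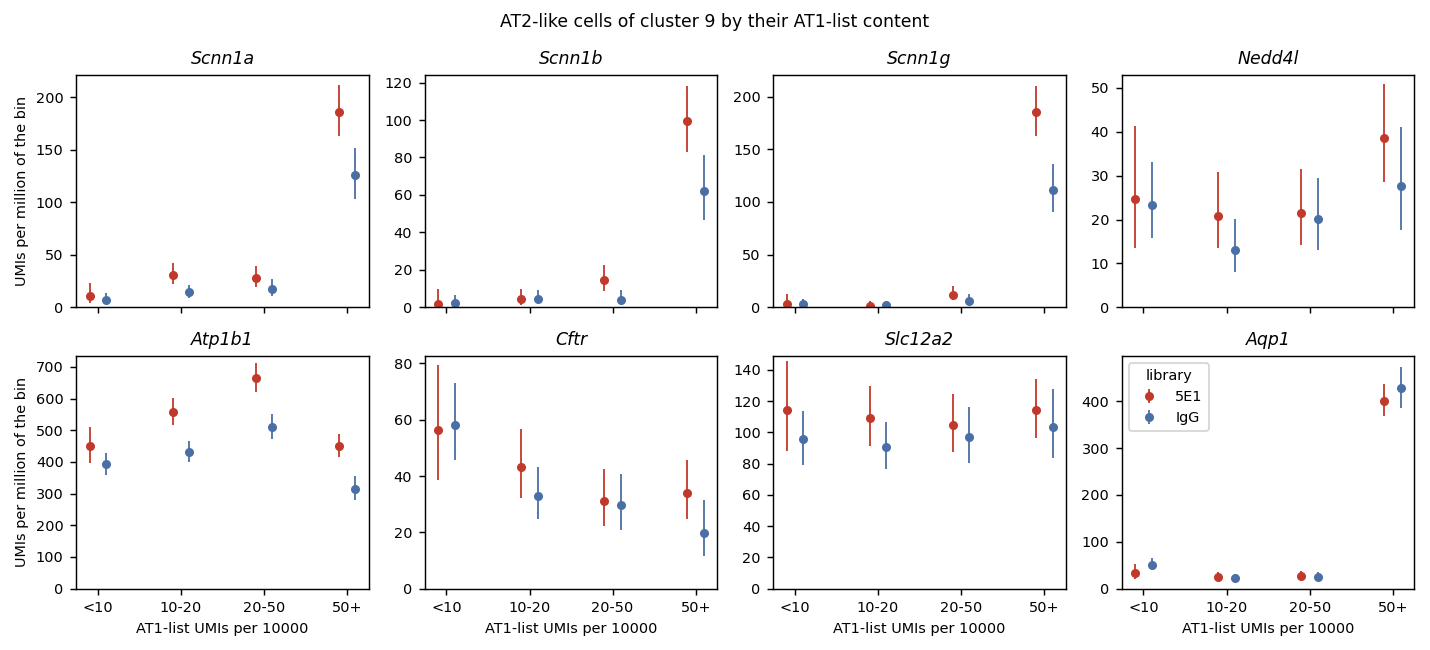
Levels of the 8 genes in CPM (vertical axes) in AT2-like cells of cluster 9, in 4 bins of AT1-list UMIs per 10000 UMIs of a cell, with 5E1 points left of IgG points and 95% Poisson intervals as lines. The 3 subunits and Aqp1 are high only in the bin of 50 or more, Cftr is highest in the bin under 10, and Slc12a2 stays near 100 CPM throughout.

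In the airway cluster 10 the subunits were close between libraries, with ratios of 1.13 for Scnn1a (1.03 to 1.23), 1.05 for Scnn1b (0.932 to 1.19) and 1.13 for Scnn1g (0.913 to 1.39). The directions were not stable: Scnn1a was at 0.990 in the secretory-rich cells, Scnn1b was below 1 under 5 of 7 other settings, with a lowest value of 0.806 after thinning, and Scnn1g under 3 of 7, with a lowest value of 0.854. Of the 8 genes, all with at least 50 UMIs there, 0 were past the fold in either direction, beside 2.10% higher and 3.66% lower of 10015 genes.

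Cluster 1, led by neutrophil genes, carried Scnn1a without its partners. Scnn1a had 61 UMIs in 55 of 454 cells in 5E1 and 16 UMIs in 16 of 256 cells in IgG, with at most 2 in a cell in 5E1 and 1 in IgG. The levels were 52.0 CPM in 5E1 and 21.4 CPM in IgG, a ratio of 2.43 (1.39 to 4.52). Scnn1b had 2 UMIs in each library and Scnn1g had 3 in 5E1 and 0 in IgG, unlike the proportions of the AT1-like cluster. Scnn1a was also nearly alone in the ciliated-rich cells of cluster 10. Scnn1b per Scnn1a was 0.0142 in 5E1 and 0.0317 in IgG in those cells. The secretory marker Scgb1a1 had 3144 UMIs in 5E1 and 3011 in IgG in cluster 1. The part of stray airway RNA in the Scnn1a values was not tested. Of the 2 members with at least 50 UMIs here, Scnn1a was past the fold on the higher side (background 9.22% of 2951 genes) and Aqp1 on the lower side (background 13.7%). With the 59 female-like 5E1 cells alone the Scnn1a ratio was 0.921. The next gene on the same strand, Tnfrsf1a, begins 4419 bases past the end of Scnn1a and had 197 UMIs in 5E1 and 93 in IgG in this cluster. Whether reads of the neighbour were assigned to Scnn1a was not tested.

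Nedd4l, which lies on chromosome 18 as does Slc12a2, tags the channel subunits with ubiquitin and so removes them from the membrane, and its loss in mouse lung raises channel activity. It was low everywhere, with 39.2 CPM in 5E1 and 29.2 CPM in IgG in AT1-like cells, 27.1 CPM in 5E1 and 28.4 CPM in IgG in cluster 10, and 26.9 CPM in 5E1 and 19.97 CPM in IgG in AT2-like cells. The intervals of clusters 15 and 10 overlapped in both libraries, so their order is not set. Its ratio was 1.35 in AT1-like cells (0.945 to 1.94) and 1.35 in AT2-like cells (1.02 to 1.78). The blood endothelial-like cluster 11 had 10.6 CPM in 5E1 and 9.86 CPM in IgG, with intervals that overlapped those of B cell-like cells, at 8.15 CPM in 5E1 and 6.56 CPM in IgG.

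**Figure D3:**
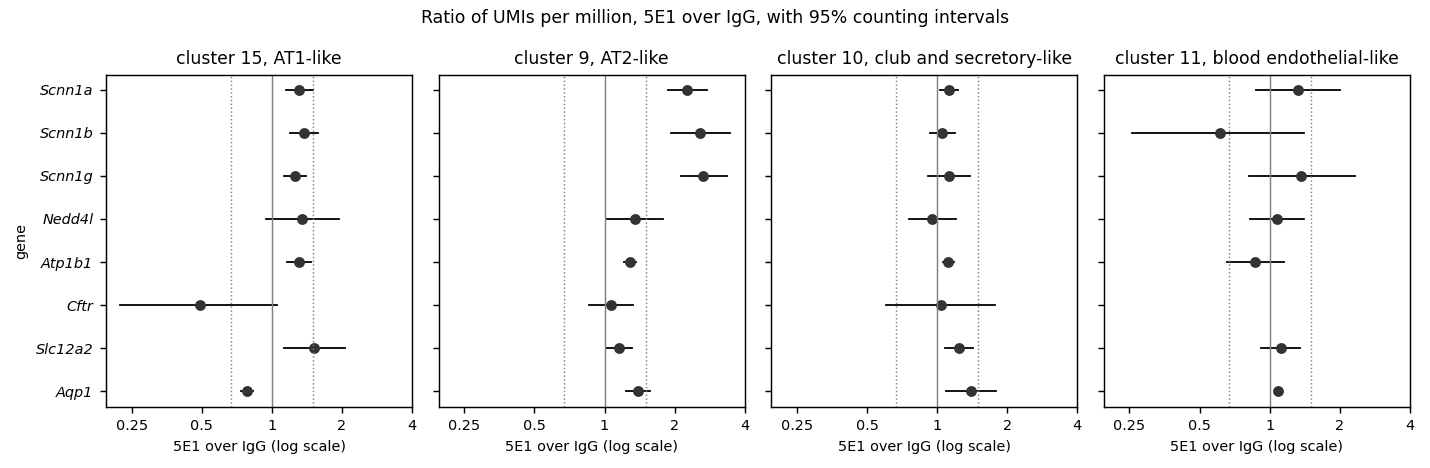
Ratio of CPM, 5E1 over IgG, on a log axis, for the 8 genes in clusters 15, 9, 10 and 11, with 95% counting intervals as lines; dotted lines mark 1.5-fold in either direction, and a gene with under 20 UMIs has no point. The 3 subunits lie to the right of 1.5-fold in cluster 9 only, and Aqp1 lies left of 1 in cluster 15 alone.

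Atp1b1 encodes the beta subunit that brings the Na,K-ATPase to the membrane. It was highest in cluster 10, with 576 CPM in 5E1 and 514 CPM in IgG, then in AT2-like cells with 543 CPM in 5E1 and 421 CPM in IgG, and in AT1-like cells with 329 CPM in 5E1 and 252 CPM in IgG. Mesothelial-like cells came next with 154 CPM in 5E1 and 126 CPM in IgG. In 5E1 the intervals of clusters 10 and 9 overlapped, while in IgG they did not. B cell-like cells had 95.4 CPM in 5E1 and 112 CPM in IgG, above the 8.97 CPM in 5E1 and 6.52 CPM in IgG of alveolar macrophage-like cells, so Atp1b1 was not limited to epithelium.

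Atp1b1 was higher in 5E1 in each of the alveolar clusters and less so in the airway. Its ratio was 1.29 in AT2-like cells (1.22 to 1.37), 1.30 in AT1-like cells (1.16 to 1.47) and 1.12 in cluster 10 (1.06 to 1.18). In AT2-like cells the ratio hardly moved with AT1 content, being 1.31 in cells under the limit and 1.28 with the bins weighted as in IgG. In AT1-like cells it was 0.967 with the 107 female-like 5E1 cells alone, 1.13 in cells without endothelial UMIs and 1.49 in cells with them. The matrix fibroblast-like clusters gave the opposite direction. Atp1b1 stood at 8.10 CPM in 5E1 and 20.5 CPM in IgG in cluster 19, a ratio of 0.396 (0.236 to 0.629). In cluster 20 it stood at 11.9 CPM in 5E1 and 27.9 CPM in IgG, a ratio of 0.427 (0.244 to 0.744). In each, 1 of 3 members with at least 50 UMIs was past the fold on the lower side, where the background was 10.5% in cluster 19 and 6.18% in cluster 20 (on the higher side 6.20% in cluster 19 and 6.70% in cluster 20). The AT2 list, whose cells are rich in Atp1b1, summed to 668 CPM in 5E1 and 936 CPM in IgG in cluster 19, and to 580.2 CPM in 5E1 and 2702 CPM in IgG in cluster 20, and its part in the result was not tested. In cluster 20 the ratio was 1.11 once every cell was thinned to 1000 UMIs. In monocyte-like cells the ratio was 0.430 (0.186 to 0.881), on 9 UMIs in 5E1 and 52 in IgG.

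Cftr, the apical chloride channel whose loss in humans causes cystic fibrosis, was an AT2 transcript here. It had 38.7 CPM in 5E1 and 36.3 CPM in IgG in cluster 9, which held 74.6% of its UMIs in 5E1 and 69.5% in IgG. No other cluster passed 5.53 CPM in 5E1 or 11.1 CPM in IgG. The ratio in AT2-like cells was 1.07 (0.858 to 1.32), so differences of up to about 1.32-fold could not be seen at this depth. Cftr ran against the subunits along AT1 content: it had 56.2 CPM in 5E1 and 58.2 CPM in IgG in cells with under 10 AT1-list UMIs per 10000, and 34.0 CPM in 5E1 and 19.6 CPM in IgG in those with 50 or more. In cluster 10 it stood at 5.53 CPM in 5E1 and 5.34 CPM in IgG, and 0 UMIs came from the ciliated-rich cells of either library, which allows levels up to that of 3 counts, 7.12 CPM in 5E1 and 7.03 CPM in IgG. Foxi1, the factor that marks airway ionocytes, the Cftr-rich cells of larger airways, had 0 UMIs in both libraries, which by the same limit allows 0.0509 CPM in 5E1 and 0.0387 CPM in IgG over all kept cells. Ascl3, another ionocyte gene, had 10 UMIs in 5E1 and 11 in IgG, of which 1 in 5E1 and 2 in IgG were in cluster 10.

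Slc12a2 moves sodium, potassium and chloride into cells from the blood side and so fuels chloride secretion. It was spread over epithelial, pericyte-like and monocyte-like clusters. After thinning every cell to 1000 UMIs, 13.8% of monocyte-like cells in 5E1 and 8.39% in IgG had an Slc12a2 UMI. In AT2-like cells the shares were 10.5% in 5E1 and 8.06% in IgG. The unnamed cluster 14 followed with 9.52% in 5E1 (6 of 63 cells, 3.58 to 19.6) and 6.94% in IgG. The shares were 7.81% in 5E1 and 4.52% in IgG in pericyte-like cells. They did not pass 2.56% in the alveolar macrophage-like, dendritic-like and interstitial macrophage-like clusters. It had 110 CPM in 5E1 and 95.6 CPM in IgG in AT2-like cells, 86.1 CPM in 5E1 and 69.5 CPM in IgG in cluster 10, 69.4 CPM in 5E1 and 61.3 CPM in IgG in pericyte-like cells and 59.3 CPM in 5E1 and 39.1 CPM in IgG in AT1-like cells. Its ratio was 1.15 in AT2-like cells (1.01 to 1.31) and 1.24 in cluster 10 (1.08 to 1.42), the second at 0.942 after thinning to 1000 UMIs per cell. In AT1-like cells it was 1.52 (1.13 to 2.06) on 142 UMIs in 5E1 and 67 in IgG, but 0.874 with the 107 female-like 5E1 cells alone.

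The monocyte-like cluster 6 ranked first of all clusters for Slc12a2 in 5E1, at 135 CPM. In IgG it had 73.7 CPM, below the 95.6 CPM of AT2-like cells. The ratio in cluster 6 was 1.83 (1.54 to 2.19). Of 4 members with at least 50 UMIs here, Slc12a2 was past the fold on the higher side (background 4.29% of 7278 genes) and Atp1b1 on the lower side (background 8.33%). Of this Slc12a2, 77.3% in 5E1 and 55.7% in IgG came from cells with at least 3 UMIs of Treml4, Adgre4 and Ace, markers of nonclassical monocytes that patrol vessels, and under 5 Ly6c2 UMIs. They were 40.2% of the cluster in 5E1 (168 cells) and 23.6% in IgG (252 cells), and had 298 CPM in 5E1 and 197 CPM in IgG, a ratio of 1.51 (1.22 to 1.88). Ly6c2-rich cells, the classical monocytes, had 5.44 CPM in 5E1 and 12.1 CPM in IgG, on 3 UMIs in 5E1 and 25 in IgG. With the 5E1 subsets weighted as in IgG the ratio of the cluster became 1.24.

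Aqp1, the water channel of vessel walls and serosal linings, was highest in the mesothelial-like cluster 17, with 1503 CPM in 5E1 and 1470 CPM in IgG, a ratio of 1.02 (0.966 to 1.08). The blood endothelial-like cluster 11 followed with 1210 CPM in 5E1 and 1115 CPM in IgG and held 68.1% of all Aqp1 UMIs in 5E1 and 61.0% in IgG. Its ratio there was 1.09 (1.06 to 1.11), and 0.951 with the 344 female-like 5E1 cells alone. Of 6 members with at least 50 UMIs in cluster 11, 0 were past the fold, beside 2.38% higher and 3.85% lower of 11466 genes. Endothelial cells with at least 5 Car4 UMIs, a mark of the large alveolar capillary cells, had 1230 CPM in 5E1 and 1109 CPM in IgG. Those with fewer had 1217 CPM in 5E1 and 1074 CPM in IgG. The median UMIs per cell were 8979 in 5E1 and 9871 in IgG with at least 5 Car4 UMIs. With fewer they were 4305 in 5E1 and 3945 in IgG. The limit was not adjusted for depth, so it cannot decide whether Aqp1 separates capillary kinds. Cells with at least 5 UMIs of lymphatic markers had 1109 CPM in 5E1 and 1395 CPM in IgG, a ratio of 0.795.

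AT1-like cells were the third site of Aqp1 in 5E1 and the second in IgG, and among clusters 17, 11 and 15 the only one where it was lower in 5E1. It had 972 CPM in 5E1 and 1250 CPM in IgG, a ratio of 0.778 (0.734 to 0.826), on 2329 UMIs in 5E1 and 2143 in IgG. After thinning every cell to 1000 UMIs, 55.6% of AT1-like cells in 5E1 (50.8 to 60.4) and 68.3% in IgG (62.5 to 73.8) had an Aqp1 UMI, against unthinned shares of 86.0% in 5E1 and 93.03% in IgG. In B cell-like cells the thinned shares were 2.35% in 5E1 and 2.67% in IgG. Endothelial and red blood cells also express Aqp1. The ratio was 0.752 with the 107 female-like 5E1 cells alone, 0.819 in AT1-like cells without a blood endothelial UMI and 0.725 in those with 1 or more, and 0.787 in those with under 3 erythroid UMIs and 0.730 in those with 3 or more. Aqp5, the water channel that defines the apical face of AT1 cells, stood at 2299 CPM in 5E1 and 2447 CPM in IgG in the same cluster, a ratio of 0.939 (0.902 to 0.978).

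In AT2-like cells Aqp1 went the other way, at 139 CPM in 5E1 and 100.2 CPM in IgG, a ratio of 1.39 (1.23 to 1.57). AT1-rich cells held 86.5% of it in 5E1 and 74.1% in IgG, and their own ratio was 0.937. Weighted over bins as in IgG, the ratio of the cluster was 0.923. In cluster 10 Aqp1 stood at 29.6 CPM in 5E1 and 21.2 CPM in IgG, a ratio of 1.40 (1.10 to 1.78), and 0.899 with female-like 5E1 cells alone. Both levels were below those in B cell-like cells, 56.6 CPM in 5E1 and 45.9 CPM in IgG. Adventitial fibroblast-like cells of cluster 18 had 106 CPM in 5E1 and 70.2 CPM in IgG, a ratio of 1.51 (1.29 to 1.77), which made Aqp1 the 1 of 3 members with at least 50 UMIs that was past the fold there, beside a background of 3.20% higher and 4.20% lower. The 5% of cells with most UMIs held 54.4% of this Aqp1 in 5E1 and 22.0% in IgG. The mesothelial list summed to 3402 CPM in 5E1 and 1263 CPM in IgG in them, against 484 CPM in 5E1 and 470.3 CPM in IgG in the other cells, whose own Aqp1 ratio was 0.889 (0.719 to 1.10).

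**Figure D4:**
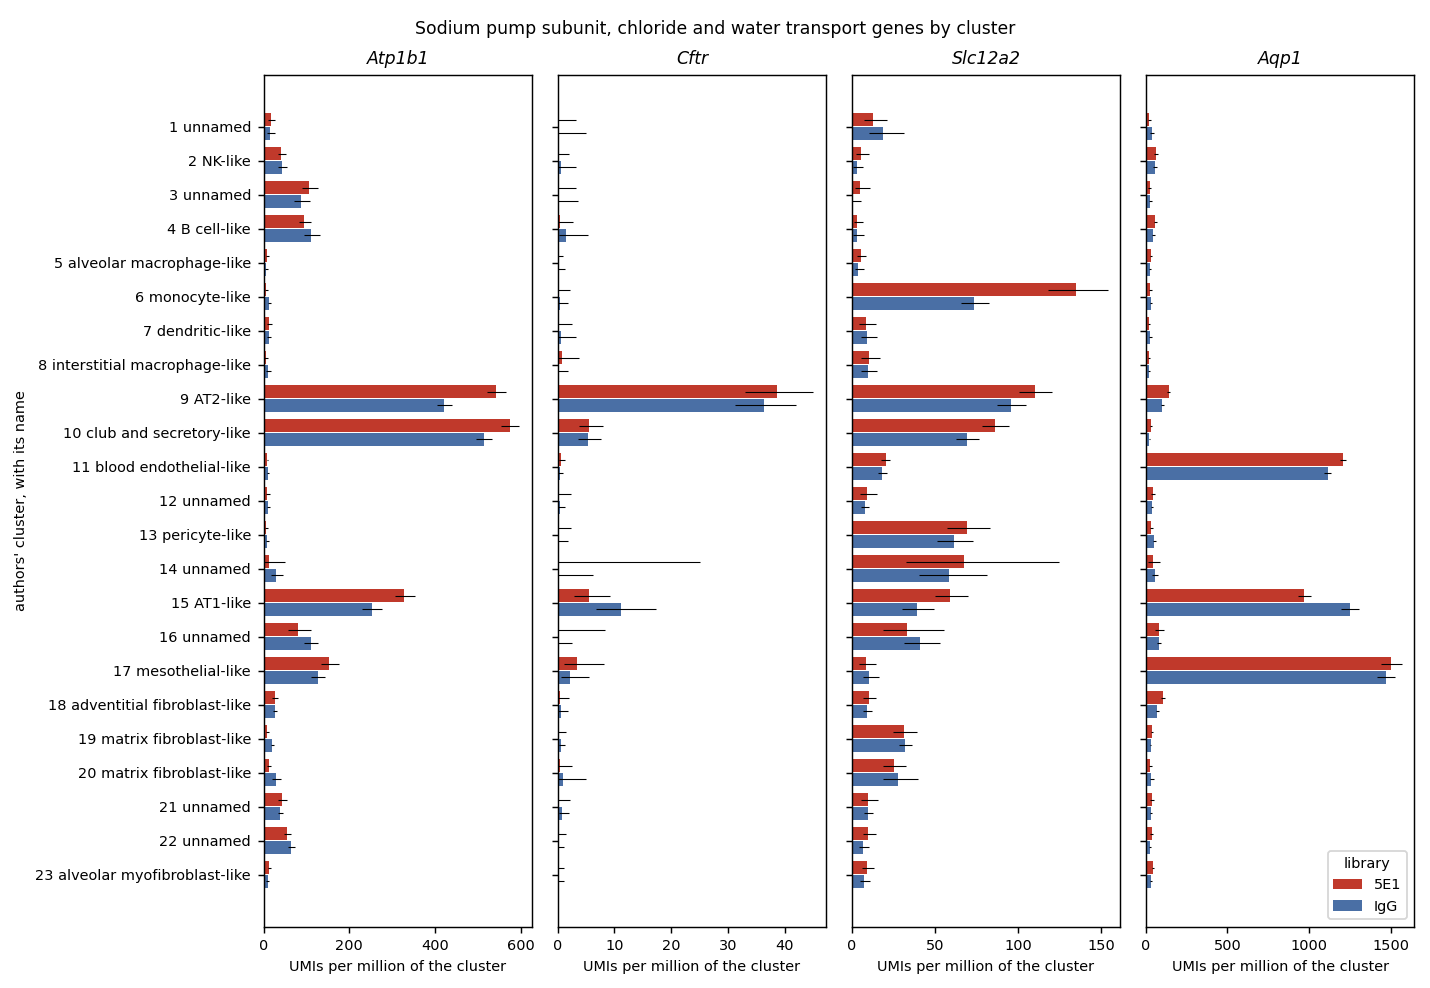
Levels of Atp1b1, Cftr, Slc12a2 and Aqp1 in CPM (horizontal axes, a different range for each gene) in the 23 authors' clusters, with 5E1 bars above IgG bars and 95% Poisson intervals as lines. Cftr stands in cluster 9, and Aqp1 is carried by clusters 17, 11 and 15. Slc12a2 is highest in monocyte-like cluster 6 in 5E1 and in AT2-like cluster 9 in IgG.

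Over all kept cells every one of the 8 genes was higher in 5E1, and for 7 of them the ratio was nearer to 1 at an equal mix of clusters. Whole-library levels of Scnn1g were 26.2 CPM in 5E1 and 12.4 CPM in IgG, a ratio of 2.12 (1.95 to 2.30). With 5E1 clusters weighted by their UMIs in the IgG library the ratio was 1.42. The same step took the ratio to 1.28 for Scnn1a, where it was 1.60 over all cells, and to 1.26 for Scnn1b, where it was 1.69. For Aqp1 the ratio at the IgG composition was 1.06 and over all cells 1.44, and the endothelial-like cluster made up 13.9% of cells in 5E1 and 9.57% in IgG. Atp1b1 had 1.12 at the IgG composition and 1.29 over all cells, and Nedd4l had 1.05 and 1.27. Slc12a2 alone moved the other way, with 1.23 at the IgG composition and 1.15 over all cells. Cftr was 0.966 at the IgG composition and 1.12 over all cells (0.936 to 1.35). In libraries made from dissociated tissue the shares of cell types may differ from those in the lung.

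**Figure D5:**
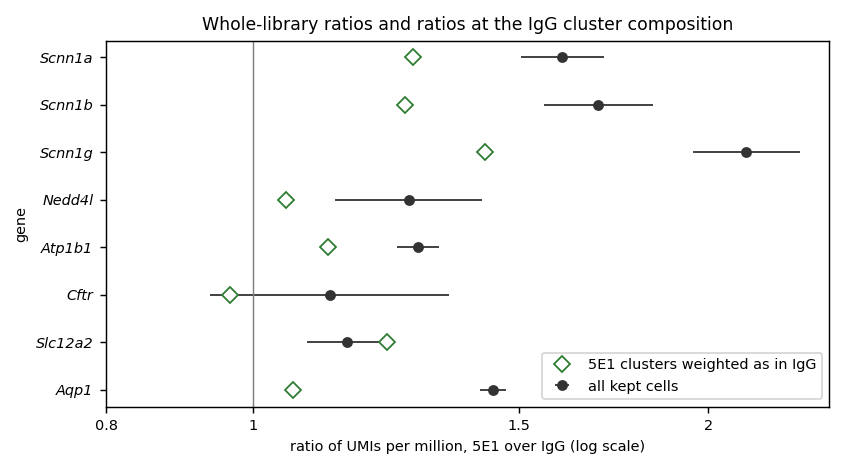
Ratio of CPM, 5E1 over IgG, on a log axis, for the 8 genes over all kept cells (filled points, with 95% counting intervals as lines) and with 5E1 clusters weighted by their UMIs in IgG (open diamonds, no interval). For 7 of the 8 genes the diamond lies nearer to 1 or below it, and for Slc12a2 it lies farther out.

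The genes that act on the channel were followed in the same clusters. Of 23 regulators of the channel, kinases, proteases, hormone receptors and their targets, 16 had at least 50 UMIs in AT1-like cells and 0 of them were past the fold. In AT2-like cells 3 of 19 were at least 1.5-fold higher and 0 lower. Over all genes of these clusters the shares were 3.33% higher and 3.72% lower in cluster 15, 4.30% higher and 5.70% lower in cluster 9, 2.10% higher and 3.66% lower in cluster 10, and 2.38% higher and 3.85% lower in cluster 11. The same shares are the background of the other list counts in these clusters. Among the AT2-like genes past the fold were Sgk1, the kinase that blocks Nedd4l, with 18.8 CPM in 5E1 and 10.8 CPM in IgG (ratio 1.74, 1.22 to 2.505), and Klf9, with 108 CPM in 5E1 and 67.3 CPM in IgG. Klf9, a target of glucocorticoid receptor, was higher in several clusters: its ratio was 1.61 in AT2-like cells (1.40 to 1.86), 1.61 in cluster 10 (1.38 to 1.88) and 1.65 in endothelial-like cells (1.47 to 1.86). It was the 1 of 20 regulators past the fold in cluster 10 and the 1 of 16 in cluster 11. Spint2, an inhibitor of channel-cleaving proteases and the regulator with most UMIs in epithelium, had ratios of 1.17 in AT1-like, 0.988 in AT2-like and 1.07 in airway cells. The dissociation stress list summed to 1202 CPM in 5E1 and 813 CPM in IgG in cluster 9, to 2523 CPM in 5E1 and 1864 CPM in IgG in cluster 10 and to 2325 CPM in 5E1 and 1899 CPM in IgG in cluster 11, and its part in these results was not tested.

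Among other Na,K-ATPase subunits and FXYD regulators of the pump, Fxyd1 was the 1 gene past the fold on the lower side in both alveolar clusters. It had 16 UMIs in 5E1 and 34 in IgG in AT1-like cells, a ratio of 0.337 (0.174 to 0.627), and 58 UMIs in 5E1 and 107 in IgG in AT2-like cells, a ratio of 0.629 (0.449 to 0.874). Of the 12 genes, 5 had at least 50 UMIs in cluster 15, 6 in cluster 9, 7 in cluster 10 and 9 in cluster 11. Lower past the fold were also 1 of the 9 in cluster 11 and 0 of the 7 in cluster 10. The only gene of the list that was higher past the fold in these 4 clusters was Fxyd4 in cluster 10, on 31 UMIs in 5E1 and 20 in IgG.

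Of 27 transporters and channels for chloride, bicarbonate and potassium, 2 of 13 in AT1-like cells, 2 of 20 in AT2-like cells, 0 of 21 in airway cells and 2 of 18 in endothelial-like cells were higher past the fold, and 0 were lower, beside 3.33%, 4.30%, 2.10% and 2.38% higher over all genes of these clusters in that order. Kcnk2, a potassium channel opened by stretch, was 1 of them in AT2-like cells with 20.9 CPM in 5E1 and 8.98 CPM in IgG (ratio 2.32, 1.61 to 3.40). In AT1-like cells its ratio was 1.73 with an interval from 0.996 to 3.13. Kcnn4 had a ratio of 1.67 (1.21 to 2.32) in endothelial-like cells.

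Of 10 other aquaporins only Aqp5 had at least 50 UMIs in either alveolar cluster. In AT2-like cells Aqp5, an AT1 transcript, had 346 CPM in 5E1 and 184 CPM in IgG, a ratio of 1.88 (1.73 to 2.04), as the channel subunits did there. Of 14 tight junction genes, which seal the epithelium against back-flow, 2 of 12 in AT1-like cells were higher past the fold. These were Cldn5, with 58.9 CPM in 5E1 and 32.1 CPM in IgG (ratio 1.84, 1.34 to 2.55), and Cldn4, with 22.96 CPM in 5E1 and 13.4 CPM in IgG (ratio 1.71, 1.03 to 2.92). Cldn5 is also an endothelial gene with 3940.3 CPM in both libraries in cluster 11, and the blood endothelial list summed to 163 CPM in 5E1 and 98.5 CPM in IgG in cluster 15; its part in the Cldn5 value was not tested. Cldn4 was also higher in AT2-like cells, at 1.90 (1.24 to 2.96), where it was the 1 of 14 past the fold. In airway cells Marveld2 was the 1 of 14 past the fold, at 1.52 (0.998 to 2.33). Cldn18, the main claudin of the alveolus, had ratios of 0.980 in AT1-like and 1.13 in AT2-like cells. In endothelial-like cells Cldn3 (0.541) and Cldn10 (0.328) were lower past the fold, at 9.57 CPM or less in either library. Cldn10 is also a leading gene of the airway cluster 10. The secretory list summed to 1106 CPM in 5E1 and 3595 CPM in IgG in endothelial-like cells with at least 5 Car4 UMIs. In those with fewer it summed to 1492 CPM in 5E1 and 2998 CPM in IgG. Its part in the values of Cldn3 and Cldn10 was not tested.

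The pattern of each gene over the 23 clusters was set beside 10613 others by Pearson correlation of log2(CPM + 1), given as a description since the points share 2 libraries and their depth. Scnn1g was most like Ager (0.972), Cldn18 (0.967) and Aqp5 (0.963), all genes of AT1 cells. Scnn1b was most like Sec14l3 (0.976), Tmprss2 (0.970) and 2310007B03Rik (0.969), and Scnn1a was most like Slc6a14 (0.918), Esrp2 (0.908) and Pdzk1ip1 (0.904). Cftr was closest to Urah (0.952), Pla2g1b (0.941) and Sftpb (0.937), the last a surfactant protein gene. Aqp1 was closest to Rapgef3 (0.906), Sh3tc2 (0.895) and Podxl (0.880). Nedd4l was closest to Prkcz (0.883), Gprc5a (0.873) and Limk2 (0.871), and Atp1b1 to Spint2 (0.893), Stard10 (0.878) and 0610011F06Rik (0.868). Slc12a2, with its monocyte and pericyte levels, had no near match, the closest being Eps8l1 (0.705), Atp11a (0.700) and Mettl7a1 (0.694).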

How the data were processed

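The authors deposited raw UMI counts per gene and cell barcode from 1 5E1 and 1 IgG library (10x Genomics 3' kit), made with Cell Ranger 3.1.1 on mm10 per the submitters' processing notes, and a table that gives kept cells 1 of 23 clusters. Its header is shifted, so the cluster column was identified from its values. The members and lists were chosen with earlier results of these data known. UMIs were summed per library and cluster and divided by the cluster's total. Exact Poisson, conditional binomial and Clopper-Pearson intervals were computed with scipy 1.17.1 in Python 3.11.15, and ratios need at least 20 UMIs. With 1 library per condition no test was made. The ratio script was tested on simulated data. A cluster was named after the marker list with at least 3 of its 10 leading genes (at least 50 CPM, 5 CPM added before the fold, limits set after seeing the data). Named genes were the 8 members, list genes with at least 50 UMIs past 1.5-fold or with most UMIs of their list, and the 3 most similar genes per member. Subsets of cells within clusters, the weightings over them and the alternatives built on them were chosen after seeing the data. No doublet caller was run. 0 columns of other samples were left out. Some genes of the lists are not reported here by name.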

Additional observations from a re-analysis of the deposited data

Results flagged for a closer look

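Both genes below had ratios whose counting intervals lie on opposite sides of 1 in different clusters. With 1 library per condition the difference between clusters was not tested. Atp1b1 was higher in 5E1 in the AT1-like cluster 15, at a ratio of 1.30 (1.16 to 1.47), and lower in the matrix fibroblast-like cluster 19, at 0.396 (0.236 to 0.629). Aqp1 was higher in 5E1 in the adventitial fibroblast-like cluster 18, at 1.51 (1.29 to 1.77), and lower in the AT1-like cluster 15, at 0.778 (0.734 to 0.826). Each higher ratio turned under another setting. Atp1b1 in cluster 15 was at 0.967 with female-like 5E1 cells alone. Aqp1 in cluster 18 was at 0.889 without the 5% of cells with most UMIs. Both lower ratios stayed below 1 under every other setting.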

How the results depend on the processing

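No paired analysis was possible because each condition is 1 library, and no replicate could be left out. For the 8 genes in the cluster where each was highest, 56 values under other settings stayed within the counting interval and 6 moved beyond it; 4 had the other sign, none of them where the interval excludes a ratio of 1. Those beyond it were the log2 ratio of Scnn1a in cluster 15 at 0.59 in cells without a blood endothelial UMI; those of Scnn1g in cluster 15 at 0.51, Atp1b1 in cluster 10 at 0.28, Slc12a2 in cluster 9 at 0.43 and Aqp1 in cluster 17 at 0.15 after thinning to 1000 UMIs per cell; and Atp1b1 in cluster 10 at 0.019 as a mean over cells. In other clusters 76 of 432 values had the other sign. Of the 24 results there whose interval excludes a ratio of 1, 11 had the other sign under at least 1 setting. The differences of 1.5-fold or more, by interval or not, turned 5 times. With female-like 5E1 cells alone, Scnn1a in cluster 1 was at -0.12 and Slc12a2 in cluster 15 at -0.19. Thinning put Atp1b1 in cluster 20 at 0.15. Without the 5% of cells with most UMIs, Aqp1 was at 0.27 in cluster 7 and -0.17 in cluster 18. Among smaller differences, Atp1b1 was at -0.05 in cluster 15 and -0.12 in cluster 17 with female-like cells, Aqp1 at -0.15 in cluster 10 and -0.07 in cluster 11 with these cells and at -0.23 in cells of cluster 9 with few AT1-list UMIs, Slc12a2 at -0.09 in cluster 10 when thinned, and Scnn1a at -0.01 in secretory-rich cells. The cause was not tested. Over all cells Cftr was at -0.15 thinned, -0.10 as a mean over cells and -0.21 with female-like 5E1 cells. Slc12a2 was highest in cluster 6 in 5E1 alone. Thinning and the female-like subset rest on few UMIs, which depth limits. Of list medians, 125 stayed and 35 moved. Over genes with at least 200 UMIs, the share at least 1.5-fold higher was 0.720% in cluster 15, 2.54% in cluster 9, 0.837% in cluster 10, 0.911% in cluster 11 and 1.93% in cluster 6, and the share lower was 1.34%, 2.74%, 0.957%, 2.11% and 5.54% in that order.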
